A study of Mus musculus with 12 samples.

Results

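The T cell receptor complex and its coreceptors were described by 10 genes in bulk RNA of mouse tumours: Cd3d, Cd3e, Cd3g, Cd247, Trac, Trbc1, Trbc2, Cd4, Cd8a and Cd8b1. They were chosen by symbol, all 10 were found among the 43432 genes of the count table, and all 10 had enough counts to be tested. The 12 libraries came from tumours grown from the pancreatic cancer line CR705. In 6 of them the line was wild type (WT), and in 6 it carried a knockout of Ahr (AHRKO), the gene of the aryl hydrocarbon receptor, by their labels. The labels give the genotype of the cancer cells only, so the T cells of these tumours would come from the host animals. For the hosts no strain, age, site of growth or time of harvest is given in the sources used here, nor is the number of knockout clones. No compound is named for any sample, although the culture texts mention test compounds. Whether replicates were separate animals is not stated, so p-values measure spread among these samples alone, which may be technical.

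The αβ T cell receptor is a pair of chains whose constant parts are encoded by Trac, Trbc1 and Trbc2. The pair recognises peptide on MHC molecules but cannot signal alone. It reaches the surface only with the CD3 chains of Cd3d, Cd3e and Cd3g and the zeta chain of Cd247, whose tails carry the tyrosine motifs that the kinases Lck and Zap70 act on. The coreceptor CD4 binds MHC class II and marks helper and regulatory T cells, and CD8, built of the chains of Cd8a and Cd8b1, binds MHC class I and marks cytotoxic T cells. In mice Cd4 is also made by some myeloid and plasmacytoid dendritic cells, Cd8a by a class of dendritic cells, and Cd247 by NK cells.

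Library totals ran from 14772343 to 35881469 counts. Levels are given as CPM, counts scaled to a common library size after TMM correction, and 3 counts were worth 0.0857 to 0.206 CPM. Ahr itself averaged 112 CPM in the WT libraries (SD 8.18) and 102 CPM in the AHRKO libraries (SD 30.6, n = 6 each), a log2 fold change of -0.13 (adjusted p = 0.606, edgeR), and its transcript does not check the genotype labels. Of 15449 genes tested, 15.9% were called higher in AHRKO and 13.6% lower, at an adjusted p under 0.05 in edgeR's quasi-likelihood test. One library stood apart: AHRKO replicate 1 had 691 CPM over 7 epithelial markers (Krt8, Krt18, Krt19, Krt7, Epcam, Cdh1 and Sox9), while the lowest of all other libraries, AHRKO replicate 6, had 2955. It also had 3754 CPM over 8 macrophage markers, while no other library exceeded 2288. Each member is therefore also given without it.

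Where the genes lie is shown first, because neighbours and near copies bear on how their counts can be read. Cd3g, Cd3d and Cd3e form a cluster on chromosome 9 (mm10, GENCODE M21). Cd3g (44969572 to 44980431, minus strand) and Cd3d (44981786 to 44987339, plus strand) are transcribed away from each other from starts 1355 bases apart, and Cd3e lies at 44998740 to 45009627 on the minus strand. Cd8b1 (71322788 to 71337494) and Cd8a (71373427 to 71379173) are neighbours on the plus strand of chromosome 6, with 35933 bases between them. The same chromosome holds Trbc1 (41538218 to 41539881, plus strand), Trbc2 (41546730 to 41548352, plus strand) and Cd4 (124864692 to 124888221, minus strand). Trac lies on chromosome 14 (54220521 to 54224206, plus strand) and Cd247 on chromosome 1 (165788681 to 165877277, plus strand). In that annotation exons of Cd3e overlap those of the opposite-strand gene Gm48719, and exons of Cd247 overlap those of Gm16565 and of the opposite-strand gene Pou2f1. Whether counting used strand is not stated, so reads of these stretches cannot be assigned with certainty.

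Trbc1 and Trbc2 are near copies: their coding bases are 95.6% identical, with 23 differences, and the first is at base 260 of the coding part. Of all stretches of 100 bases in the Trbc1 transcript, 28.7% also occur in the Trbc2 transcript. The 250 coding bases up to base 500 (GENCODE M21) are shown to mark where a read can tell them apart, with their 19 differing bases in capitals.
Trbc1: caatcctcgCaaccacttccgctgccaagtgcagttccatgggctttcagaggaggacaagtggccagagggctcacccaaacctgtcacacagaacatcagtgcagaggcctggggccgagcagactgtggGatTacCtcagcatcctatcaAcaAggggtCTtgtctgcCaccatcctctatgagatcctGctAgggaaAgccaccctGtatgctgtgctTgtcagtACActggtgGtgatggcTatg
Trbc2: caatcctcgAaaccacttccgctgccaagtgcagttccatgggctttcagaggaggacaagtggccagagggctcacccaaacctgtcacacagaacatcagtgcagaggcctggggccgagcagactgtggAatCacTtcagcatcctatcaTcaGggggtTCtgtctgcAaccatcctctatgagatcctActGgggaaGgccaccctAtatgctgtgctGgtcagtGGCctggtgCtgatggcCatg

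The sequences before the start sites of Cd3d, Cd3g, Cd3e and Cd8a are shown because the CD3 genes are neighbours that rose together, and because Cd8a had the largest log2 fold change among the members, as described below. RefSeq's promoter table (GRCm38.p6) held 5 of the 10 members. Each line gives the 250 bases before the start, 5′ to 3′ on the gene's strand, with matches to 6 motifs in capitals, searched on both strands. The motif of ETS factors was searched as AGGAAG. That of Runx factors was searched as ACCACA, and the E-box, which basic helix-loop-helix factors bind, as CAGNTG. The GAS motif of STAT factors was searched as TTCNNNGAA and the TATA box as TATAAA, and the ISRE of interferon-response genes was the other motif.
Cd3d: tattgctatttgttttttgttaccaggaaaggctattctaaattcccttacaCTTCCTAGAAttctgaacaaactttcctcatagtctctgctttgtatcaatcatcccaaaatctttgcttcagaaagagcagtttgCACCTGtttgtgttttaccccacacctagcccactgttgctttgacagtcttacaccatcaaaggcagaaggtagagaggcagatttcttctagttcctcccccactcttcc
Cd3g: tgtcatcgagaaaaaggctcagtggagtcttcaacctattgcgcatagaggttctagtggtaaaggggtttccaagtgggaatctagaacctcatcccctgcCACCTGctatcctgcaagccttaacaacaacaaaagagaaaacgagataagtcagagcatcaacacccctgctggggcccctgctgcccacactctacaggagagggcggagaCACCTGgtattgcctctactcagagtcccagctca
Cd3e: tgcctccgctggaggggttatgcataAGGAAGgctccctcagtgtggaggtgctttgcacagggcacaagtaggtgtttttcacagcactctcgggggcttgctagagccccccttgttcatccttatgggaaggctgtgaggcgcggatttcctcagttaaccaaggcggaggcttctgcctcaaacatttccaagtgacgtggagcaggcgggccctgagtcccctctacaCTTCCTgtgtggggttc
Cd8a: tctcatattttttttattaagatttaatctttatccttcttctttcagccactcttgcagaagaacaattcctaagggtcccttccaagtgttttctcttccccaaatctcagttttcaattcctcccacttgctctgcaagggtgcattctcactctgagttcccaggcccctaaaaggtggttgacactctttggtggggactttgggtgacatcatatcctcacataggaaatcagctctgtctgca

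These windows lie at chr9:44981536-44981785 (Cd3d, plus strand), chr9:44980432-44980681 (Cd3g, minus), chr9:45009612-45009861 (Cd3e, minus) and chr6:71373177-71373426 (Cd8a, plus). The Cd3d window held 1 ETS, 1 E-box and 1 GAS match, with the ETS and GAS matches overlapping. The Cd3g window held 2 E-box matches and the Cd3e window 2 ETS matches. The Cd8a window held no match to any of the 6 motifs. Among 32851 windows of the same length, 29.5% held the ETS letters, 44.8% the E-box, 7.02% the GAS, 14% the Runx, 2.98% the ISRE and 12.4% the TATA letters. The matches are a description of letters and not of bound sites.

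All 10 members rose in AHRKO tumours, where 15.9% of all tested genes were called higher. The median log2 fold change of the 10 was 2.99, against 0.023 over all tested genes. Every member was above the WT median in 6 of 6 AHRKO libraries, a pattern whose share over all tested genes was not computed. The groups were fully apart for 3 members (Cd3e, Cd247 and Cd4), a pattern that 6.03% of all tested genes showed. For 8 members at least 5 of 6 AHRKO libraries exceeded every WT library, which held for 15.3% of all tested genes. The exceptions were Cd8a, with 3 such libraries, and Cd8b1, with 4. In bulk RNA, more cells of a type and more RNA per cell cannot be told apart.

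**Figure D1:**
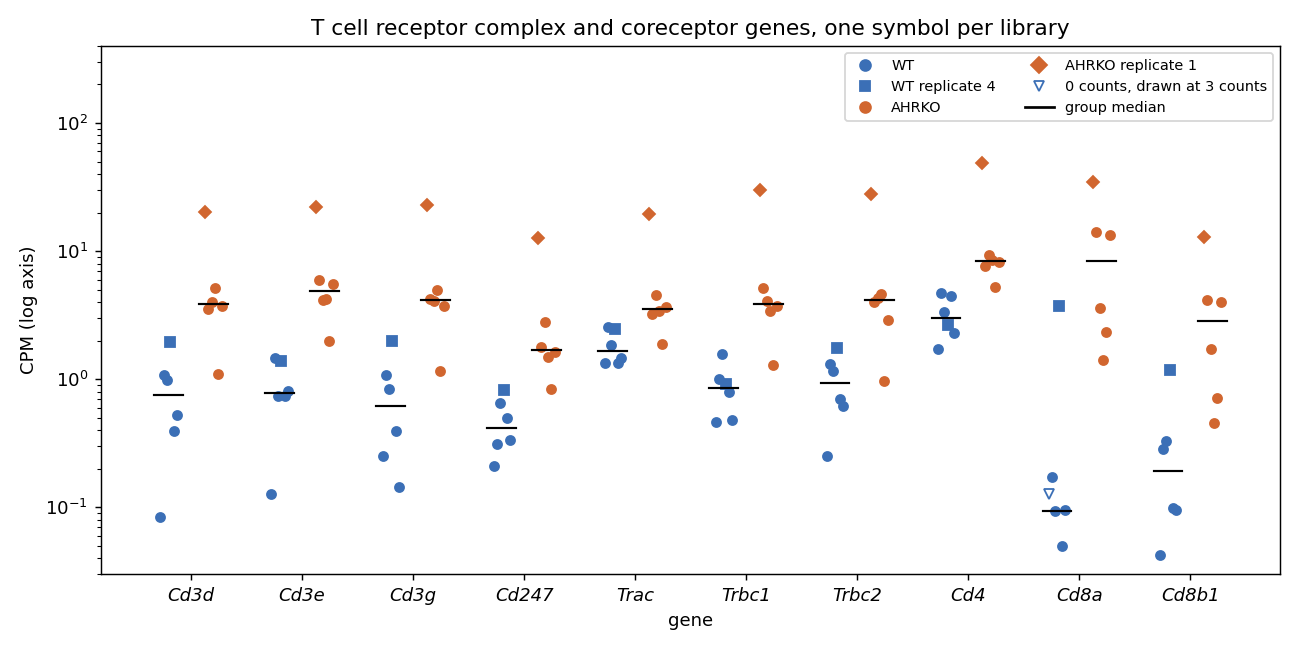
CPM (log axis) of the 10 genes in each library, WT in blue and AHRKO in orange, with the group median as a line; the open triangle is a library with 0 counts, drawn at the level of 3 counts. AHRKO replicate 1 (diamond) is the highest library for each gene, and WT replicate 4 (square) stands above the other WT libraries for Cd8a and Cd8b1.

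Cd3e, whose chain pairs with both Cd3d and Cd3g products, was at 0.126, 1.46, 0.746, 1.38, 0.744 and 0.809 CPM in WT replicates 1 to 6. In AHRKO replicates 1 to 6 it was at 22.1, 5.90, 4.19, 4.22, 1.99 and 5.55 CPM. The groups did not overlap, WT replicate 1 was lowest and AHRKO replicate 1 was highest. The log2 fold change was 3.05 ± 0.62 (SE, adjusted p = 0.00419, edgeR's quasi-likelihood test). Without AHRKO replicate 1 it was 2.30 (adjusted p = 0.00219).

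Cd3d, the delta chain, had a lowest, median and highest level of 0.0841, 0.751 and 1.94 CPM in WT and 1.09, 3.84 and 20.4 CPM in AHRKO. Cd3g, the gamma chain, had 0.143, 0.618 and 2.00 CPM in WT and 1.16, 4.16 and 22.8 CPM in AHRKO. For both genes AHRKO replicate 5 was below WT replicate 4, the highest WT library, and the other 5 AHRKO libraries were above it. The log2 fold changes were 2.91 ± 0.73 for Cd3d (adjusted p = 0.0112) and 3.11 ± 0.75 for Cd3g (adjusted p = 0.0093, edgeR). Without AHRKO replicate 1 they were 2.06 and 2.21.

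Cd247, the zeta chain that carries most of the signalling motifs, had 0.21, 0.415 and 0.819 CPM as lowest, median and highest level in WT. In AHRKO the levels were 0.836, 1.71 and 12.7 CPM. The groups met without overlapping, at WT replicate 4 and AHRKO replicate 5. Its log2 fold change was 2.91 ± 0.67 (adjusted p = 0.00746, edgeR), and 1.87 without AHRKO replicate 1.

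Trbc1 and Trbc2, the 2 alternative constant parts of the beta chain, moved alike. Trbc1 was at 0.462, 0.858 and 1.58 CPM (lowest, median, highest) in WT and at 1.29, 3.88 and 29.8 CPM in AHRKO. Trbc2 was at 0.252, 0.93 and 1.74 CPM in WT and at 0.965, 4.17 and 27.9 CPM in AHRKO. AHRKO replicate 5 was the only AHRKO library within the WT range of either gene. The log2 fold changes were 3.17 ± 0.71 (adjusted p = 0.00636) for Trbc1 and 2.94 ± 0.74 (adjusted p = 0.0114) for Trbc2, and 2.01 and 1.80 without AHRKO replicate 1 (edgeR). Trbc1 held from 34.6% to 64.7% of the counts of both genes in single WT libraries and from 42.6% to 57.1% in AHRKO libraries. Their ratio did not pass (log2 difference 0.15, adjusted p = 0.621, exact permutation test), and its sign changed to -0.02 without WT replicate 4.

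Trac, the constant part of the alpha chain, changed least among the members. It was at 1.34, 2.57, 1.86, 2.46, 1.34 and 1.48 CPM in WT replicates 1 to 6 and at 19.5, 3.24, 4.53, 3.42, 1.87 and 3.64 CPM in AHRKO replicates 1 to 6. AHRKO replicate 5 was within the WT range and the other AHRKO libraries were above it. The log2 fold change was 1.71 ± 0.52 (adjusted p = 0.0271, edgeR) and 0.85 without AHRKO replicate 1 (adjusted p = 0.0243). The call ended without WT replicate 1, 5 or 6, with adjusted p of 0.0572, 0.0596 and 0.0568.

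Cd4 was at 1.72, 4.68, 3.36, 2.66, 4.47 and 2.28 CPM in WT replicates 1 to 6. In AHRKO replicates 1 to 6 it was at 48.7, 7.60, 9.27, 8.55, 5.21 and 8.27 CPM. All AHRKO libraries were above all WT libraries, and apart from replicate 1 the AHRKO libraries stayed within a narrow range. The log2 fold change was 2.19 ± 0.55 (adjusted p = 0.0109, edgeR) and 1.28 without AHRKO replicate 1 (adjusted p = 0.00317).

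Cd8a had few or no counts in 5 of 6 WT libraries: 0, 6, 2, 1 and 2 counts in WT replicates 1, 2, 3, 5 and 6, or at most 0.171 CPM. The 0 in WT replicate 1 allows up to 0.126 CPM, the level of 3 counts. WT replicate 4 had 73 counts, or 3.74 CPM. In AHRKO replicates 1 to 6 Cd8a was at 34.8, 14.1, 3.57, 1.42, 2.32 and 13.3 CPM. Replicates 1, 2 and 6 were above WT replicate 4, and replicates 3, 4 and 5 were below it and above the other WT libraries. The log2 fold change was 4.11 ± 1.2 (adjusted p = 0.0223, edgeR), 3.40 without AHRKO replicate 1 (adjusted p = 0.0289) and 6.95 without WT replicate 4 (adjusted p = 0.00187).

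Cd8b1, the CD8 beta chain, is largely restricted to αβ T cells, unlike Cd8a. It was at 0.042, 0.192 and 1.18 CPM (lowest, median, highest) in WT, again with replicate 4 highest, and at 0.456, 2.85 and 12.9 CPM in AHRKO. AHRKO replicates 4 and 5 lay below WT replicate 4. Its log2 fold change was 3.57 ± 0.90 (adjusted p = 0.0115, edgeR), 2.74 without AHRKO replicate 1 and 4.47 without WT replicate 4. WT libraries other than replicate 4 had at most 0.171 CPM of Cd8a and 0.326 CPM of Cd8b1, below the level that the count filter asks for. Both CD8 genes thus entered the test through the AHRKO libraries, with WT replicate 4 for Cd8b1. Being tested and being called higher are therefore not independent for them.

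**Figure D2:**
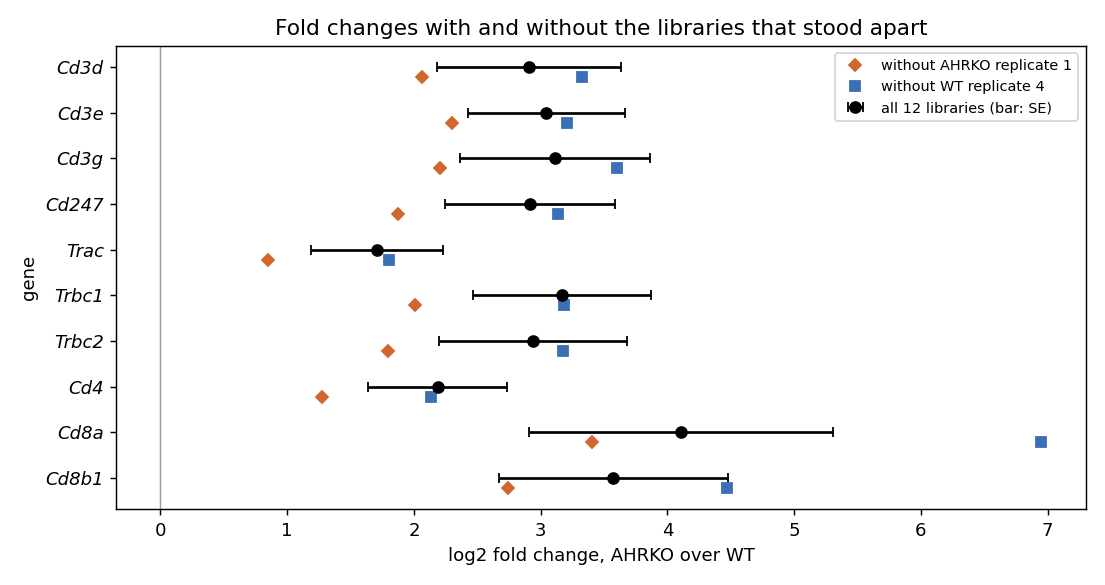
Log2 fold change of each gene, AHRKO over WT, over all 12 libraries (black, bar: SE), without AHRKO replicate 1 (orange) and without WT replicate 4 (blue). Each gene is lower without AHRKO replicate 1, and Cd8a moves from 4.11 to 6.95 without WT replicate 4.

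Levels of different genes were compared per kilobase of exon, in CPM per kilobase. In WT the order was Trac (1.97 ± 0.594), Trbc2 (1.39 ± 0.782), Trbc1 (1.17 ± 0.553), Cd4 (0.793 ± 0.296), Cd3d (0.46 ± 0.363), Cd3g (0.24 ± 0.212), Cd8b1 (0.228 ± 0.288), Cd3e (0.215 ± 0.12), Cd8a (0.19 ± 0.41) and Cd247 (0.0884 ± 0.0433; mean ± SD, n = 6). In AHRKO the constant parts also led, with Trbc2 at 10.8 ± 14.6 and Trbc1 at 10.6 ± 14.4, followed by Trac at 6.46 ± 7.12 and Cd4 at 3.62 ± 4.16. Next in AHRKO came Cd3d (3.47 ± 3.86), Cd8a (3.19 ± 3.48), Cd8b1 (2.69 ± 3.14), Cd3g (2.09 ± 2.42), Cd3e (1.79 ± 1.80) and Cd247 (0.664 ± 0.85). Neighbours in either order differed by less than the larger of their SDs. In AHRKO each SD exceeded its mean, with replicate 1 highest for every gene. The WT level of Cd8a rests on WT replicate 4, at 3.74 CPM against at most 0.171 CPM in the other WT libraries.

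The balance of Cd8a and Cd4 was taken as the share of Cd8a in the counts of both genes. That share does not allow for gene length, so it compares libraries and not the 2 genes. In WT replicates 1 to 6 it was 0%, 3.53%, 2.70%, 58.4%, 1.10% and 4%. In AHRKO replicates 1 to 6 it was 41.7%, 65.0%, 27.8%, 14.3%, 30.8% and 61.7%. The exact (Clopper-Pearson) 95% binomial intervals cover counting error only. WT replicate 4 (49.2% to 67.1%) was apart from every other WT library, none of which reached above 13.7%. Within AHRKO, replicate 4 (9.46% to 20.4%) and replicate 3 (21.5% to 34.8%) were apart from replicate 2 (60.3% to 69.4%) and replicate 6 (56.5% to 66.6%), so the libraries of that group differed by more than counting error. The 0 of 41 counts in WT replicate 1 allows a share of up to 8.60%.

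**Figure D3:**
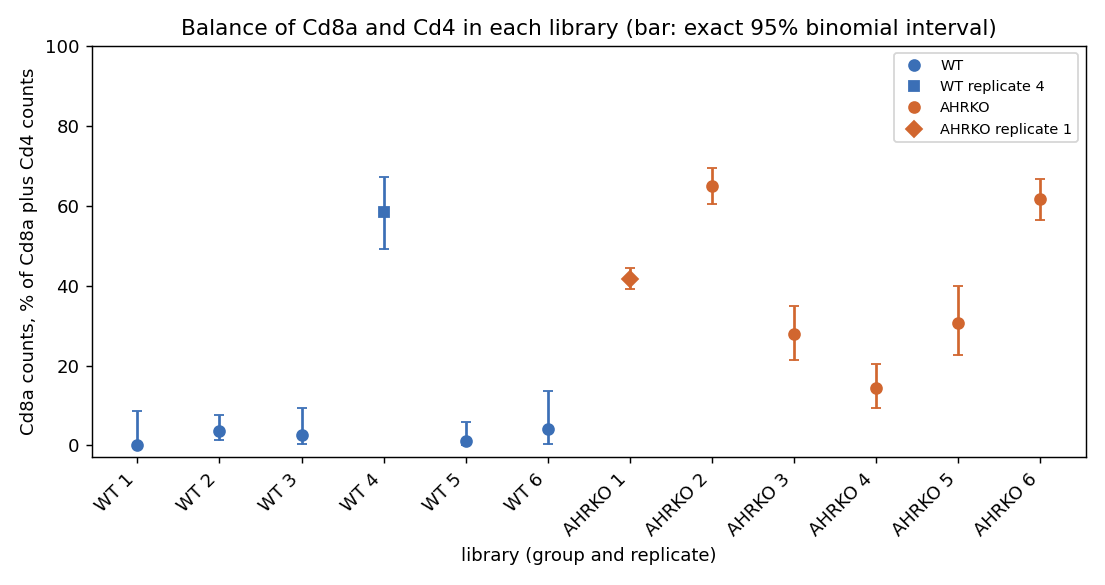
Cd8a counts as a percentage of Cd8a plus Cd4 counts in each library, with exact 95% binomial intervals. WT libraries other than replicate 4 lie at or below 4%, and AHRKO libraries spread from 14.3% to 65.0%.

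The log2 ratio of Cd8a to Cd4 counts (0.5 added to each) was -4.27 ± 2.46 in WT and -0.67 ± 1.31 in AHRKO (mean ± SD, n = 6 per group). The difference of 3.60 passed (exact two-sided permutation test, adjusted p = 0.0242 over 8 ratios), and AHRKO replicates 2 and 6 were above WT replicate 4. The call ended without WT replicate 1 or AHRKO replicate 2 or 6 (adjusted p = 0.0519 each, at differences of 3.18, 3.29 and 3.33). It also ended with medians in place of means (3.94, adjusted p = 0.124, exact permutation test). Without WT replicate 4 the difference was 4.55 (adjusted p = 0.00346). In WT libraries other than replicate 4 the ratio rests on at most 6 counts of Cd8a.

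The other ratios with CD8 genes depended on the same low counts. Cd8a to Cd3e rose by 2.48 on the log2 scale, from -2.21 ± 1.79 to 0.27 ± 1.06 (adjusted p = 0.0346, exact permutation test), and no AHRKO library was above WT replicate 4. That call ended when WT replicate 1, 3, 5 or 6 or AHRKO replicate 1, 2 or 6 was left out (adjusted p of at most 0.0577), and with 2 counts added in place of 0.5 (1.87, adjusted p = 0.0635, exact permutation test). Cd8a to Cd8b1 rose by 2.03, from -0.49 ± 1.21 to 1.53 ± 0.27 (adjusted p = 0.0231, exact permutation test). All AHRKO libraries were between 1.04 and 1.75 and WT replicate 4 was at 1.65, while the other 5 WT libraries were at or below 0, with 0 to 6 counts of Cd8a and 1 to 10 of Cd8b1. With medians this call ended (2.34, adjusted p = 0.0519, exact permutation test).

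Cd4 rose less than Cd3e. The log2 ratio of Cd4 to Cd3e counts fell by 1.12, from 2.05 ± 0.93 in WT to 0.93 ± 0.38 in AHRKO (exact permutation test, adjusted p = 0.0242), and AHRKO replicates 2 and 6 were below all WT libraries. WT replicate 1, with 41 counts of Cd4 and 3 of Cd3e, had the highest ratio, 3.57. The difference was -0.82 without that library (adjusted p = 0.0519), and the call also ended without AHRKO replicate 2 or 6 (adjusted p = 0.0577 each, exact permutation tests) and with medians (-0.83, adjusted p = 0.0952).

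Trac also fell relative to Cd3e, and here the groups were fully apart. The log2 ratio of Trac to Cd3e counts was 1.30 ± 0.96 in WT, from 0.81 to 3.22, and -0.32 ± 0.36 in AHRKO, from -0.86 to 0.11. The difference of -1.62 had an adjusted p of 0.00866 (exact permutation test), and with medians it was -1.08 and did not pass (adjusted p = 0.0519). The smallest p that 924 assignments can give is 0.00216. WT replicate 1 had 32 counts of Trac beside 3 of Cd3e, 2 of Cd3d and 6 of Cd3g. Zeta chain counts did not pass relative to Cd3e: the log2 ratio of Cd247 to Cd3e was -0.70 ± 0.95 in WT and -1.26 ± 0.49 in AHRKO (adjusted p = 0.275, exact permutation test), and it passed without WT replicate 2 (-0.85, adjusted p = 0.047).

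Cd3e rose more than the general leukocyte gene Ptprc. Ptprc, which encodes the phosphatase CD45 of all leukocytes, rose by 1.69 ± 0.43 on the log2 scale (adjusted p = 0.0115, edgeR). The log2 ratio of Cd3e to Ptprc counts was -5.43 ± 1.03 in WT and -3.90 ± 0.26 in AHRKO. All 6 AHRKO libraries, from -4.39 to -3.66, were above all WT libraries, from -7.29 to -4.46. The difference of 1.53 had an adjusted p of 0.00866 (exact permutation test), and with medians it was 1.35 and did not pass (adjusted p = 0.0519). AHRKO replicate 1 was at -3.74, within the range of the other AHRKO libraries, although its Cd3e level was far above theirs.

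**Figure D4:**
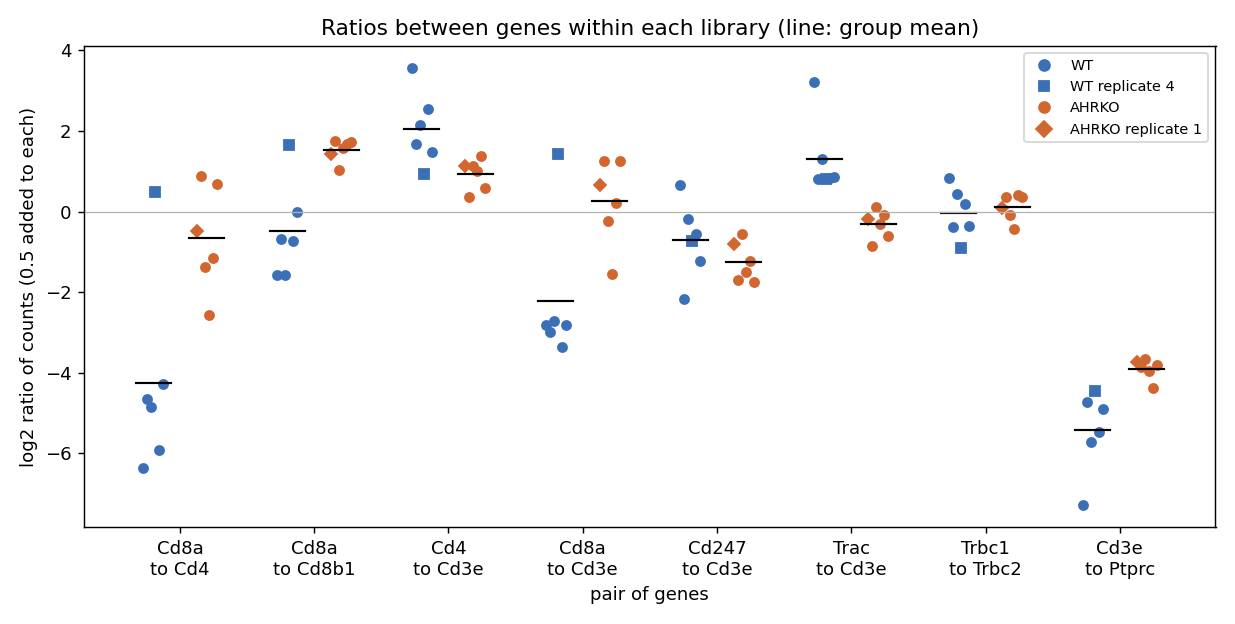
Log2 ratios of counts (0.5 added to each) between 8 pairs of genes in each library, with group means as lines. Trac to Cd3e and Cd3e to Ptprc separate the groups fully, while the ratios with Cd8a overlap at WT replicate 4 (square).

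Likeness to Cd3e was measured as the SD over the 12 libraries of the log2 ratio of CPM, where a small SD means that 2 genes kept a near-constant ratio. Among 13072 genes of mean log2 CPM of at least 0, the median SD was 1.78. That is close to the SD of Cd3e itself (1.75), which a gene with little change would score. The SD runs over both groups, so a like shift between groups also makes it small. Among the 10 closest genes were H2-Aa (0.36), H2-Ab1 (0.37), Icos (0.39), Cd5 (0.41), Ms4a4b (0.42), Cd3d (0.45), H2-Eb1 (0.45), Lck (0.47) and Phf11b (0.48). H2-Aa, H2-Ab1 and H2-Eb1 encode MHC class II chains, Icos a costimulatory receptor, Lck a kinase of receptor signalling, and Cd5 a surface regulator of T cells. Of the 10 closest genes, 8 were also among the 10 closest without AHRKO replicate 1, and 8 without WT replicate 4. Other members ranked lower: Trbc2 was at rank 20 (0.53), Trbc1 at 44 (0.65), Cd3g at 61 (0.69), Cd247 at 64 (0.70), Cd4 at 99 (0.77), Trac at 277 (0.96) and Cd8a at 2119 (1.55). A rank depends on the reference gene. With Cd8a as reference, Cd3g was at rank 38 (1.53), Cd3e at 42 (1.55) and Cd3d at 47 (1.61). The other ranked members ran from 71 (Trbc2) to 292 (Trac) there. Cd8b1 lay under the limit on mean log2 CPM and was not ranked. Low counts widen these SDs, so a rank does not separate counting error from a different pattern.

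**Figure D5:**
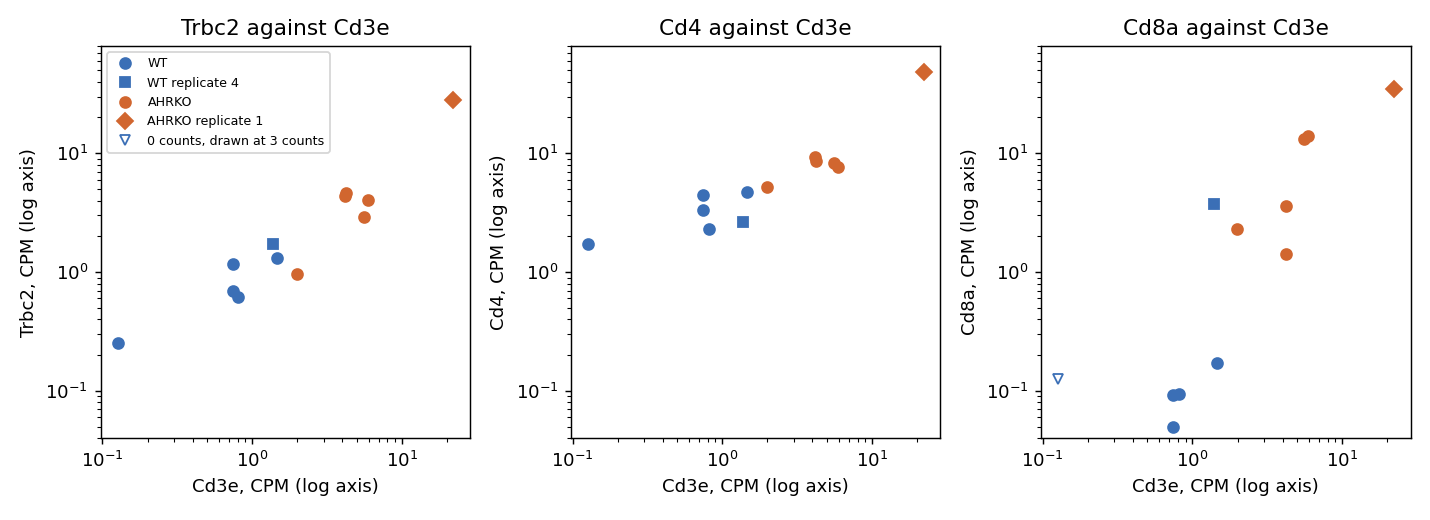
CPM of Trbc2, Cd4 and Cd8a against Cd3e in each library (log axes); the open triangle has 0 counts of Cd8a and is drawn at 3 counts. Trbc2 follows Cd3e over the whole range, Cd4 spans a narrower range, and Cd8a differs widely between libraries with like Cd3e levels.

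Cd8a kept the closest ratio to Gbp4 (0.68), Cxcl9 (0.69), Iigp1 (0.74), Ubd (0.82) and Gbp2 (0.82), against a median SD of 2.96 over all candidates. That median is close to the SD of Cd8a itself (2.94). Cd8b1 was not among the candidates, so its likeness to Cd8a was not ranked. Gbp4, Gbp2 and Iigp1 encode GTPases of cell-intrinsic defence, Cxcl9 a chemokine that attracts T cells, and Ubd a ubiquitin-like protein, and interferon gamma is known to induce each of them. Gbp4 was at 39.7 CPM in WT replicate 4 against at most 4.94 CPM in the other WT libraries. In AHRKO replicates 1 to 6 Gbp4 was at 305, 172, 59.1, 17.8, 15.4 and 198 CPM, with replicates 1, 2 and 6 high as for Cd8a. Of the 5 genes, 4 were again among the closest without AHRKO replicate 1 and all 5 without WT replicate 4. Cd4 was closest to P2ry10 (0.32), Rac2 (0.32), Cytip (0.32), Arhgap30 (0.33) and Sash3 (0.33), genes shared by many leukocytes, and only 1 of these 5 remained without AHRKO replicate 1.

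Genes that act just below the receptor rose in part. Of 24 tested genes of proximal T cell receptor signalling, 16 rose and 1 fell, where 15.9% of all tested genes were called higher and 13.6% lower. The median log2 fold change of the 24 was 1.61, against 0.023 over all tested genes. Among those with the smallest p were Rasgrp1, an activator of Ras, at 1.86 ± 0.33 (adjusted p = 0.00213) and the kinase gene Txk at 2.47 ± 0.54 (adjusted p = 0.0056, edgeR). Lck, the kinase that CD4 and CD8 carry to the receptor, rose by 2.56 ± 0.60 (adjusted p = 0.0083), and Zap70, which binds the phosphorylated zeta chain, by 1.68 ± 0.49 (adjusted p = 0.0221). Plcg1, a phospholipase that most cells make and that was named after its value was seen, was the 1 gene that fell (-0.32 ± 0.10, adjusted p = 0.0285). Ptpn22, a phosphatase that restrains the receptor, was at 0.13 ± 0.34 and did not pass (adjusted p = 0.798), and Cblb, a ubiquitin ligase with the same role, was at -0.06 ± 0.17 (adjusted p = 0.825). Counts with a library left out are of the 26 listed genes, tested or not, so they do not compare directly with 16 of 24. Without WT replicate 4 the call of Plcg1 ended, and 13 of the 26 listed genes rose and none fell. In that fit 11.7% of all tested genes were called higher and 10.5% lower. Without AHRKO replicate 1, 13 of the 26 rose and 2 fell, where 19.1% of all genes tested without that library were called higher and 17.8% lower.

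Costimulatory and adhesion partners of the receptor rose in 10 of 12 cases and fell in none, beside 15.9% and 13.6% of all tested genes, with a median of 2.29. They included Cd6 at 2.63 ± 0.55 (adjusted p = 0.00467), Cd28, the main costimulatory receptor, at 2.12 ± 0.45 (adjusted p = 0.00498), Cd5 at 2.78 ± 0.59 (adjusted p = 0.00529) and the integrin gene Itgal at 1.96 ± 0.45 (adjusted p = 0.00757, edgeR). Thy1, which fibroblasts also make, was at -0.22 ± 0.28 and did not pass (adjusted p = 0.593). Without AHRKO replicate 1, 10 of the 12 rose and 1 fell, beside the same 19.1% and 17.8% over all genes. The ligands of the coreceptors rose in 6 of 6 cases, where 15.9% of all tested genes were called higher, with a median of 2.72. They included the class II genes H2-Eb1 at 3.35 ± 0.54 and H2-Ab1 at 3.21 ± 0.53, and the class I gene H2-D1 at 2.27 ± 0.38 (adjusted p = 0.00125, 0.00144 and 0.00148, edgeR).

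Genes of immature T cells had few counts. Rag2, part of the enzyme that rearranges receptor genes, had 0 counts in all libraries, and Rag1 had 15 counts in all, none of them in AHRKO. Dntt, which adds bases at receptor junctions, had 87 counts in all, with its highest level of 3.09 CPM in AHRKO replicate 1, and Ptcra, the surrogate alpha chain of thymocytes, 32, and neither was tested. The constant parts of the γδ receptor chains (Trdc, Trgc1, Trgc2 and Trgc4) were looked for by symbol and not found among the named genes, so their levels could not be read.

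Part of the markers of other cells that can make single members also rose, where 15.9% of all tested genes were called higher and 13.6% lower. Of 6 tested NK cell markers 4 rose (Ncr1 at 2.84, Klra7 at 2.81, Klrb1c at 2.33 and Klre1 at 1.90). Each of these 4 exceeded every WT library in 5 of 6 AHRKO libraries, where 15.3% of all tested genes did so in at least 5. The summed level of the list was 16.8 to 23.6 CPM in WT and 7.59 to 53.8 in AHRKO, where replicates 2, 5 and 6 were below every WT library. Most of the WT sum was Klra4, at a mean of 15.8 CPM in WT and 10.4 in AHRKO, so the sum does not follow the 4 that rose. Klra4, at -0.61, and Eomes, at 0.27, did not pass. Without AHRKO replicate 1, 3 of the NK cell markers rose, where 19.1% of all genes tested in that fit were called higher. Without WT replicate 4, 4 rose, beside 11.7% of all genes. With both libraries left out, a choice made after seeing the data, 2 rose, and the share over all genes is not given for that fit. Of 7 tested markers of dendritic cells that bear CD8a, 6 rose (such as Irf8 at 2.10, Xcr1 at 3.24, Batf3 at 2.55 and Wdfy4 at 1.61) and Cadm1, which many other cells make, fell by 1.04. Their sum was 129 to 188 CPM in WT and 158 to 361 in AHRKO, and its largest part in WT was Cadm1 (mean 104 CPM, and 50.5 in AHRKO). Xcr1, their most specific marker, was at 0.141 CPM on average in WT and 1.31 in AHRKO. With at most 0.307 CPM in WT, Xcr1 entered the test through the AHRKO libraries. Of 4 tested plasmacytoid dendritic cell markers 3 rose (Siglech at 3.99, Ccr9 at 2.47 and Bst2 at 2.08), with sums of 134 to 181 CPM in WT and 143 to 415 in AHRKO. The largest part of that sum in WT was Tcf4, which did not pass (mean 125 CPM, and 116 in AHRKO). Of 8 macrophage markers 6 rose, such as C1qc at 1.60, with sums of 421 to 978 CPM in WT and 561 to 3754 in AHRKO. Without WT replicate 4, 4 of the macrophage markers rose, where 11.7% of all genes tested without that library were called higher. No marker in these 4 lists was at 0 in every library. Their part in the levels of Cd4, Cd8a and Cd247 was not tested. The B cell markers Cd79b (2.99) and Cd79a (2.56) were the 2 of 6 that could be tested and both rose. None of 7 epithelial markers passed, with Krt19 at -1.04 ± 0.40 (adjusted p = 0.0695, edgeR), and without AHRKO replicate 1, 1 of the 7 rose and 1 fell, a share of the list below that over all genes in each direction.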

How the data were processed

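Bulk RNA from 12 tumour samples, selected with poly-T beads, was sequenced on an Illumina instrument, per the labels' protocols. The authors deposited raw counts of reads for each gene, and the submitters' processing notes name mm10, HISAT2, SAMtools, HTSeq and DESeq2. Which annotation they used, and whether reads were counted by strand, is not given in the sources used here. Identifiers were joined to GENCODE M21, which named 42548 of 43432 genes.

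Libraries of the same group were not duplicates (lowest chi-squared per degree of freedom 13.6). Genes kept by edgeR's filterByExpr (15449) were scaled by TMM and tested with edgeR's quasi-likelihood test (version 4.0.16, R 4.3.3, limma 3.58.1, DESeq2 1.42.0), with p-values adjusted by Benjamini-Hochberg across these genes and called under 0.05. CPM were computed from the deposited counts. For 8 ratios between genes, 0.5 counts were added and groups compared by an exact permutation test over 924 assignments, adjusted over the 8. Log2 CPM for likeness used a prior count of 2. The pipeline was tested on simulated data.

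Besides the members, up to 4 genes per list with the smallest p were named, and the 10 or 5 genes closest to Cd3e, Cd4 and Cd8a, passing over predicted models, pseudogenes and variable segments. Lck, Zap70, Ptpn22, Cblb, Thy1, Plcg1, Cadm1 and Ptprc were named beside this rule, and some genes that it names are not reported here. The members and lists were chosen with earlier results of these data known. Alternatives were DESeq2, limma-voom with sample quality weights, RLE and upper-quartile scaling, no filter, a stricter filter (10 counts in 6 libraries and a mean log2 CPM from 1 up), the replicate number as a block, other pseudocounts, medians, and leaving out libraries.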

Additional observations from a re-analysis of the deposited data

Results flagged for a closer look

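Among 36 groups of 6 libraries (10 genes and 8 ratios in each genotype), 14 had a highest or lowest library whose gap to the next exceeded Dixon's 95% limit. Chance gives about 1 in 20 for independent, normally distributed values. These genes and ratios share the same 12 libraries, and CPM were not logged, so that rate is no measure for the 14.

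In 9 genes that library was AHRKO replicate 1, with 20.4 CPM for Cd3d, 22.1 for Cd3e, 22.8 for Cd3g, 12.7 for Cd247, 19.5 for Trac, 29.8 for Trbc1, 27.9 for Trbc2, 48.7 for Cd4 and 12.9 for Cd8b1. The next AHRKO library was at 9.27 CPM for Cd4 and 5.90 for Cd3e. Cd8a, at 34.8 CPM in AHRKO replicate 1, stayed under the limit because replicates 2 and 6 were also high. The epithelial markers were lowest in that library and the macrophage markers highest, and their part in the receptor levels was not tested.

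WT replicate 4 stood apart for both CD8 genes, with 3.74 CPM of Cd8a against 0.171 in the next WT library and 1.18 CPM of Cd8b1 against 0.326. Its log2 ratios of Cd8a to Cd4 (0.49) and of Cd8a to Cd3e (1.42) also stood apart, while its Cd4 and Cd3e levels lay within the range of the other WT libraries. It was the highest WT library for Cd3d (1.94 CPM), Cd3g (2.00), Cd247 (0.819) and Trbc2 (1.74). The summed level of the MHC ligands was 2760 CPM there and at most 1308 CPM in the other WT libraries, and its part in the CD8 levels was not tested.

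WT replicate 1 had a log2 ratio of Trac to Cd3e of 3.22, against 1.30 in the next WT library, at 32 and 3 counts.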

How the results depend on the processing

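The count of members called higher was 9 or 10 of 10 under all alternatives except the replicate block, and none was called lower under any. DESeq2 gave 9 of 10, with no adjusted p for Cd4. The stricter filter also gave 9, Cd247 not being tested. Labels give both groups the replicate numbers 1 to 6 without saying that they mark pairs, and deviations of same-numbered libraries correlated at -0.47 to 0.03. With the replicate block 4 members were called (Cd3e, Cd3g, Trbc1 and Cd8a), and 6 kept their direction without passing. The share of all tested genes called in that fit is not given, so the drop cannot be read as particular to the members. For ratios the block is a sign-flip test over 6 pairs with a smallest p of 0.0312. Its differences are the same by construction, as a mean of paired differences equals the difference of group means. Adjusted over 8 ratios, that smallest p passes only if most of the ratios reach it, so not passing says little. None passed: 3.60 for Cd8a to Cd4, 2.03 for Cd8a to Cd8b1, -1.12 for Cd4 to Cd3e, -1.62 for Trac to Cd3e and 1.53 for Cd3e to Ptprc (adjusted p = 0.1 each, exact test), and 2.48 for Cd8a to Cd3e (adjusted p = 0.107, exact test).

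With medians in place of means, none of the 6 ratios passed: 3.94 for Cd8a to Cd4 and 3.24 for Cd8a to Cd3e (adjusted p = 0.124 each, exact permutation test), 2.34 for Cd8a to Cd8b1, -1.08 for Trac to Cd3e and 1.35 for Cd3e to Ptprc (adjusted p = 0.0519 each, exact permutation test) and -0.83 for Cd4 to Cd3e (adjusted p = 0.0952, exact permutation test). With 2 counts added, Cd8a to Cd3e was 1.87 and did not pass. With no pseudocount the 3 ratios with Cd8a have no value.

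Leaving out 1 library at a time gave log2 differences of 3.18 to 4.55 for Cd8a to Cd4, 2.25 to 3.21 for Cd8a to Cd3e, -1.35 to -0.82 for Cd4 to Cd3e, -0.85 to -0.28 for Cd247 to Cd3e 1.81 to 2.45 for Cd8a to Cd8b1, -1.72 to -1.24 for Trac to Cd3e, 1.15 to 1.72 for Cd3e to Ptprc and -0.023 (without WT replicate 4) to 0.32 for Trbc1 to Trbc2. Cd8a to Cd8b1, Trac to Cd3e and Cd3e to Ptprc passed in each of these, and the cause of the other changes was not tested. Without AHRKO replicate 1 and WT replicate 4 together, chosen after seeing the data, Trbc1 to Trbc2 was -0.019, Cd4 to Cd3e was -1.39 and 9 members were called, Cd8b1 having fallen under the filter. The ratios with Cd8a rest on at most 6 counts of it in 5 WT libraries.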
